A study of Mus musculus with 34 samples.

Results

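Basement membranes are thin sheets of extracellular matrix that underlie epithelia and surround blood vessels, muscle fibers, nerves and fat cells. This account follows 10 genes that encode their core components, namely the laminin chains Lama4, Lama5, Lamb1, Lamb2 and Lamc1, the collagen IV chains Col4a1 and Col4a2, the nidogens Nid1 and Nid2, and Hspg2, which encodes the heparan sulfate proteoglycan perlecan. The 10 genes were taken by name from 25853 genes listed over all tables of a single-cell RNA sequencing study of mouse ear skin, and each was found. Levels were read in cells with more than 1000 transcripts, as transcripts per 10,000 outside genes named Gm plus a digit.

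The study sorted dermal mast cells (MCs) and smooth muscle cells from ear skin and counted the transcripts of single cells by mCEL-Seq2, a plate method that tags each transcript near its 3′ end with a unique molecular identifier (UMI). WT MCs came from 3 control mice that carried Mcpt5-Cre+/- and the R26LSL:YFP reporter with Tln1+/+ alleles, and KO MCs came from 3 Mcpt5-Cre+/- R26LSL:YFP littermates with Tln1fl/fl alleles, all of them 7-week-old males. Cre and YFP were thus present in both groups, and the deletion of Tln1, which encodes the integrin adaptor talin-1, was driven by the Mcpt5 promoter of connective tissue MCs. The study's methods place the Mcpt5-Cre Tln1fl/fl line and its reporter crosses on a C57BL/6J-Albino background. Smooth muscle cells were sorted as CD45-GFP+ cells of Tg Myh11GFP/+ mice on C57BL/6J, in which GFP follows the smooth muscle myosin gene Myh11. The labels give 4 libraries of them, numbered 13 to 16, but no number of mice and no age. The study's methods give 7 to 12 weeks for its mice in general, and the libraries were treated as 1 sample without a test.

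The kept cells numbered 904 from WT mice, 1573 from KO mice and 330 from Myh11-GFP mice. Mast cells had a median of 3301 transcripts outside Gm genes per cell and Myh11-GFP cells had 3915, and a library held 156196 to 912499 such transcripts in MCs and 221589 to 478713 in Myh11-GFP cells. MC markers made up over 1% of transcripts in 2462 of 2477 MCs. Tln1 itself was at 4.51, 5.92 and 6.71 transcripts per 10,000 in the WT mice and 5.57, 4.33 and 3.63 in the KO mice (limma log2 fold change -0.31 ± 0.24 (SE, n = 3 and 3), adjusted p = 0.87). Reads at the 3′ end of the mRNA check the deletion only if they fall in the deleted exons, and where those lie was not given in the sources used here.

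Laminins are cross-shaped trimers of an α, a β and a γ chain, and they polymerize at the cell surface, where integrins and dystroglycan bind the α chain. Collagen IV forms a covalently linked net, most widely from α1 and α2 chains, and nidogens and perlecan connect it to the laminin network. In vessel walls the laminins with the chains α4 and α5 prevail, the β2 chain is known from arterial smooth muscle, synapses and the kidney filter, and the γ1 chain is shared by most laminins.

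The collagen IV pair has a genomic layout of its own. In GENCODE M21 on GRCm38, the build that the study mapped to as mm10, Col4a1 lies on the minus strand of chromosome 8 from 11198423 to 11312826 and Col4a2 lies on the plus strand from 11312805 to 11449287, so that the genes point away from each other and their annotated starts overlap by 22 bases. The stretch that the RefSeq promoter windows of both genes share (GRCm38.p6, 250 bases before to 50 bases after each start) is shown because both genes start inside it. It spans 78 bases, chr8:11312777-11312854, and is written on the plus strand with the 22 bases from the Col4a2 start to the Col4a1 start in capitals.
Col4a1 and Col4a2 shared start: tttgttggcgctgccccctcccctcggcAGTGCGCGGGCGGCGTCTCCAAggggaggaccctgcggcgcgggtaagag

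Promoter windows of 7 of the 10 genes were matched in the RefSeq table by symbol, and those of Lama4, Lamc1 and Nid2 were not. Windows of the 3 genes whose levels separated best between the classes of Myh11-GFP cells described next are printed 5′ to 3′ on the strand of the gene, with GC boxes (GGGCGG) and CCAAT boxes (CCAAT) of either strand in capitals. The Lama5 window is chr2:180225810-180226109 on the minus strand, the Lamb2 window is chr9:108479612-108479911 on the plus strand, and the Nid1 window is chr13:13437352-13437651 on the plus strand.
Lama5: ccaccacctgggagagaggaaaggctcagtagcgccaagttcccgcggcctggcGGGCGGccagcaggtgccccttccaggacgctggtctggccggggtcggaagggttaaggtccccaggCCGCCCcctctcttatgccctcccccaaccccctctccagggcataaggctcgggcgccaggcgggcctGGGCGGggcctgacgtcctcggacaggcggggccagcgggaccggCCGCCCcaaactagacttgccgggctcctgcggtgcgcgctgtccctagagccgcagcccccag
Lamb2: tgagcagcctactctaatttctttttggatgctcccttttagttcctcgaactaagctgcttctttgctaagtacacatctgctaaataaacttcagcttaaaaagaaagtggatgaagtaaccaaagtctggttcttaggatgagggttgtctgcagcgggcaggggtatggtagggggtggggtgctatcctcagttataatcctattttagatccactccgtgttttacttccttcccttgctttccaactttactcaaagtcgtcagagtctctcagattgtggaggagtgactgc
Nid1: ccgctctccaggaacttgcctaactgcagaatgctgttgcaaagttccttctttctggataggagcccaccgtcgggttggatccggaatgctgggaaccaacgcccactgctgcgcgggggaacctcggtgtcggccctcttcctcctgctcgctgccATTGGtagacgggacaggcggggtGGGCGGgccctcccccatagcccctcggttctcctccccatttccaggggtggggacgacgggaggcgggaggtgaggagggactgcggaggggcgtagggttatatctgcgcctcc

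The Lama5 window held 4 GC boxes and was 72.7% G or C, whereas the Lamb2 window held neither motif and was 44% G or C. The Nid1 window held 1 GC box and 1 CCAAT box. A GC box was present in 6 of the 7 member windows and in 35.7% of all 32851 windows of the same length, and a CCAAT box was present in 4 of the 7 and in 37.4% of all. None of the 7 held a TATA box (TATAAA), which 13.6% of all windows had, or a CArG box, the motif bound by serum response factor in smooth muscle genes, which 1.63% of all windows had. A match is a run of letters and not a measured binding site, and RefSeq and GENCODE place some starts differently.

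Which of these genes did Myh11-GFP cells express, and did cells rich in contractile genes differ from cells poor in them? Cells were split at 50 transcripts of Acta2 (smooth muscle actin) plus Myh11 per 10,000, which put 176 cells in a low class and 154 in a high class. The split is a range and not a pair of cell types, since 149 of the 330 cells lay between 25 and 100 and 46 lay within 10 of the cut. The median cell had 44.3. Acta2 and Myh11, which set the split, were at 11.7 and 6.13 in low and 75.5 and 32.5 in high cells. Of the other vascular smooth muscle cell (VSMC) markers, Tagln was at 5.14 and 33.9, Myl9 at 8.27 and 29.5, Mylk at 14.5 and 34.8, Lmod1 at 0.91 and 4.55 and Des at 2.68 and 3.78, and Cnn1 was at 0 in low and 0.80 in high cells.

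The low class was mixed. The 8 pericyte markers summed to 132 per 10,000 in low and 143 in high cells, and exceeded 1% of transcripts in 118 of 176 low and 94 of 154 high cells. Of these markers, Rgs5 (107 and 122), Notch3 (8.85 and 11.6) and Cspg4 (0.45 and 2.72) were higher in high cells, and Kcnj8 (2.44 and 0.72), Abcc9 (4.03 and 0.91), Steap4 (3.25 and 0.41), Pdgfrb (5.65 and 4.13) and Higd1b (0.79 and 0.56) were higher in low cells. Fibroblast markers summed to 239 to 511 per 10,000 over the libraries in low cells and to 36.0 to 75.2 in high cells, and all 8 were found in both classes. They exceeded 1% of transcripts in 67 of 176 low and 29 of 154 high cells. Keratinocyte markers did so in 6 low cells, striated muscle markers in 10 and Schwann cell markers in 1. Endothelial markers summed to 2.89 per 10,000 in low cells (231 transcripts, all 8 found) and 1.16 in high cells (74 transcripts), mostly Flt1 (1.53 and 1.14), with Cdh5, Kdr, Tie1, Tek, Emcn and Cldn5 at 0 in high cells. Ratios without the cells that carried fibroblast, keratinocyte or striated muscle markers are given for the 9 genes other than Nid2.

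The 10 genes together made up 37.2 transcripts per 10,000 in low cells (95% Poisson interval 35.9 to 38.5) and 38.4 in high cells (36.9 to 40.0), a ratio of 1.03 (0.98 to 1.09). The summed level hid opposite differences among its members. Laminin chains Lama5 and Lamb2 were higher in high cells in all 4 libraries, Lamb1 and Nid1 were lower in all 4, and the remaining genes had no common direction. The intervals cover counting error only and not differences between animals.

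Col4a1, the α1 chain of collagen IV, was the most abundant of the 10 at 12.01 transcripts per 10,000 over all Myh11-GFP cells (11.5 to 12.6), and Col4a2 followed at 9.01 (8.53 to 9.51). Since each transcript is tagged once at its end, such levels do not scale with gene length, although capture may differ between genes. Lamb2 (5.41), Lamc1 (4.20) and Nid1 (2.80) came next with intervals that did not overlap those of their neighbors. Lama5 at 1.54 (1.34 to 1.75) and Lama4 at 1.34 (1.16 to 1.54) could not be ordered, nor could Hspg2 at 0.71 (0.58 to 0.86) and Lamb1 at 0.62 (0.50 to 0.76). Nid2 had 15 transcripts in all and a level of 0.10 (0.06 to 0.17).

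Among the α chains, Lama5 was at 1.03, 0.64, 0.95 and 0.43 per 10,000 in low cells of libraries 13, 14, 15 and 16 and at 2.77, 2.49, 2.12 and 2.36 in high cells of the same libraries. Every high value was above every low value. The pooled ratio of high over low cells was 3.07 (95% interval 2.28 to 4.17), and it was 2.10 (1.5 to 2.99) without the cells that carried fibroblast, keratinocyte or striated muscle markers. Lama4, the other vascular α chain, was at 1.57, 1.01, 0.78 and 1.35 in low cells and at 1.57, 0.62, 2.12 and 1.49 in high cells. Those ranges overlapped, and its pooled ratio of 1.26 (0.94 to 1.69) had an interval that included 1. It was 1.21 (0.82 to 1.81) without those cells, 1.46 (1.06 to 2.03) with a cut at 25 and 1.396 without library 14. As a mean over the levels of single cells the Lama4 ratio was 0.77, on the other side of 1.

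The β chains diverged. Lamb2, the β2 chain, was at 4.66, 4.39, 4.37 and 3.05 per 10,000 in low cells of the 4 libraries and at 5.68, 7.19, 7.68 and 7.58 in high cells, again without overlap. Its ratio of high over low cells was 1.62 (1.405 to 1.87), and 1.46 (1.22 to 1.75) without cells carrying those markers. Lamb1, the β1 chain, was at 0.61, 0.92, 0.95 and 0.92 in low cells and at 0.51, 0.28, 0.10 and 0.75 in high cells. It was lower in high cells within each library, but the ranges overlapped through library 13, whose low cells were below the high cells of library 16. Its ratio was 0.435 (0.26 to 0.71) on 66 and 23 transcripts, and 0.74 as a mean over the levels of single cells. The interval included 1 without library 15, at 0.60 (0.34 to 1.02), with a cut at 100, at 0.54 (0.26 to 1.02), and without the cells with fibroblast, keratinocyte or striated muscle markers, at 0.57 (0.28 to 1.14).

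Lamc1, the γ1 chain that partners both β chains, was at 3.78, 4.26, 2.80 and 3.48 per 10,000 in low cells and at 5.31, 3.60, 5.96 and 3.60 in high cells. It was higher in high cells in 3 of 4 libraries, with a pooled ratio of 1.35 (1.15 to 1.59). The interval reached 1 without library 15, at 1.14 (0.94 to 1.39), with a cut at 100, at 1.14 (0.94 to 1.38), and without the cells carrying fibroblast, keratinocyte or striated muscle markers, at 1.23 (0.998 to 1.51). Summed over the 5 laminin chains, high cells had 16.1 and low cells 10.7 transcripts per 10,000, a ratio of 1.51 (1.38 to 1.65) with 1.26 to 1.82 in single libraries.

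Col4a1 was at 11.5, 15.3, 10.8 and 9.44 per 10,000 in low cells and at 13.6, 9.48, 11.9 and 12.7 in high cells. Library 14 went against the other libraries, and the pooled ratio was 1.00 (0.91 to 1.1). It was 1.19 (1.06 to 1.33) without library 14, 1.16 (1.05 to 1.28) with a cut at 25 and 0.97 (0.85 to 1.1) without the marker-carrying cells. Col4a2 was at 8.68, 13.6, 9.30 and 8.09 in low cells and at 8.73, 5.95, 7.68 and 8.20 in high cells. Its ratio was 1.01, 0.44, 0.83 and 1.01 in libraries 13, 14, 15 and 16. The pooled ratio of 0.77 (0.69 to 0.86) became 0.94 (0.82 to 1.07) without library 14, an interval that included 1. Without the marker-carrying cells the pooled ratio was 0.66 (0.57 to 0.76), a setting that was not run without library 14.

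Nid1, which links laminin γ1 to collagen IV, was at 2.94, 4.03, 3.42 and 4.12 per 10,000 in low cells and at 1.94, 0.97, 2.32 and 2.11 in high cells. All high values were below all low values, and the ratio of high over low cells was 0.52 (0.42 to 0.65), and 0.49 (0.36 to 0.65) without the marker-carrying cells. Hspg2 was at 0.92, 0.73, 0.56 and 0.78 in low cells and at 0.69, 0.48, 0.56 and 0.99 in high cells, with overlapping ranges and a ratio of 0.84 (0.55 to 1.27), or 0.70 (0.40 to 1.23) without the marker-carrying cells. Nid2 was at 0 in 2 libraries of low cells and in 1 of high cells, and no ratio was read from its 9 and 6 transcripts.

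**Figure D1:**
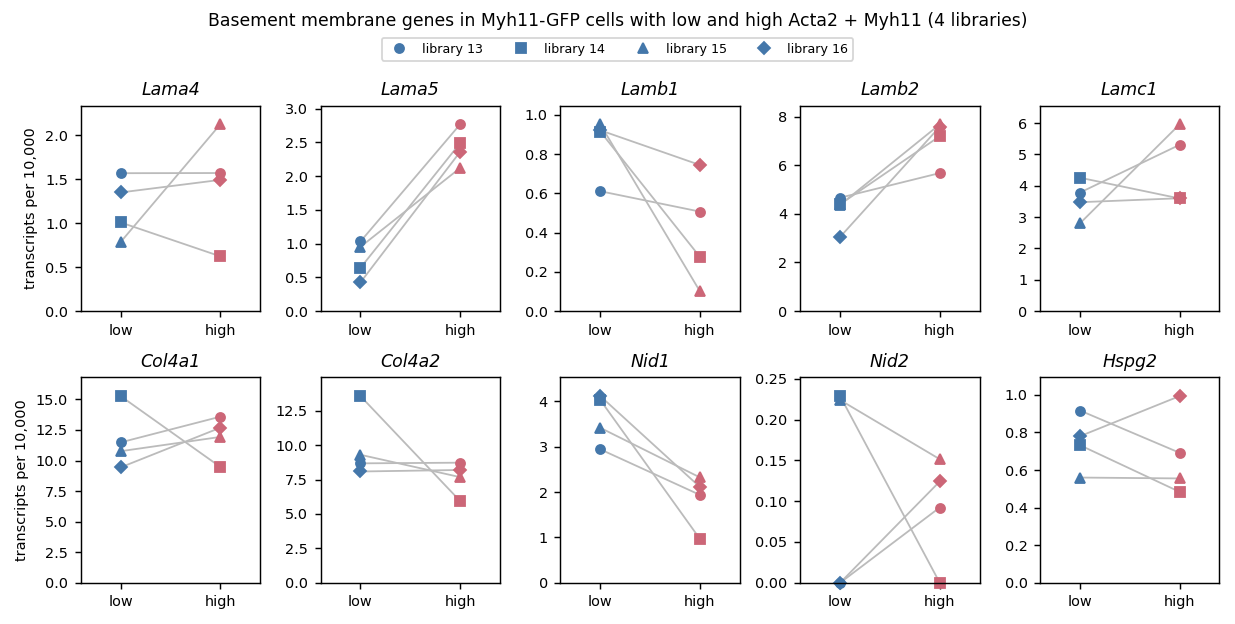
Transcripts per 10,000 outside Gm genes (y axis, linear from 0) of the 10 genes in Myh11-GFP cells with low and high Acta2 plus Myh11 (x axis). Each symbol is 1 of 4 libraries and gray lines join the classes of a library; Lama5 and Lamb2 go up and Lamb1 and Nid1 go down in all 4.

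Read against all genes, the counts were modest. Of the 10 genes, 9 had at least 50 transcripts in Myh11-GFP cells and were compared with the 4390 genes that also had. A level at least 2 times higher in high cells was found for 1 of the 9 (Lama5), against 4.99% of all genes, and a level at least 2 times lower for 1 (Lamb1), against 6.49%. The same direction in all 4 libraries was found for 4 of the 9, against 30.8% of all genes, and classes without overlap for 3 of the 9 (Lama5, Lamb2 and Nid1), against 16.0%. The median log2 ratio of the 9 genes was 0.00, and that of all genes was 0.05. The values above therefore describe single genes, and the list as a whole was not tested against the background.

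The same genes were then read along the range of contractile gene levels, without a cut at 50. The 330 cells were ranked by Acta2 plus Myh11 and divided into 4 groups of 82 or 83 cells. Lama5 was at 0.52 (0.32 to 0.78), 0.96 (0.66 to 1.36), 2.17 (1.70 to 2.74) and 2.70 (2.19 to 3.30) per 10,000 from the lowest to the highest group. Lamb2 was at 3.35, 5.14, 6.79 and 6.86, with the upper 2 groups alike. Nid1 went the other way, at 4.10 (3.52 to 4.76), 2.83, 2.35 and 1.62 (1.23 to 2.10), and Lamb1 was at 0.90, 0.78, 0.42 and 0.31. Col4a1 stayed between 10.9 and 13.2 in all 4 groups, and Col4a2 was at 9.51, 11.4, 7.58 and 7.48. The median share of fibroblast markers in a cell was 0.88%, 0.81%, 0.43% and 0.36% in the same groups, and its part in these differences was not tested.

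**Figure D2:**
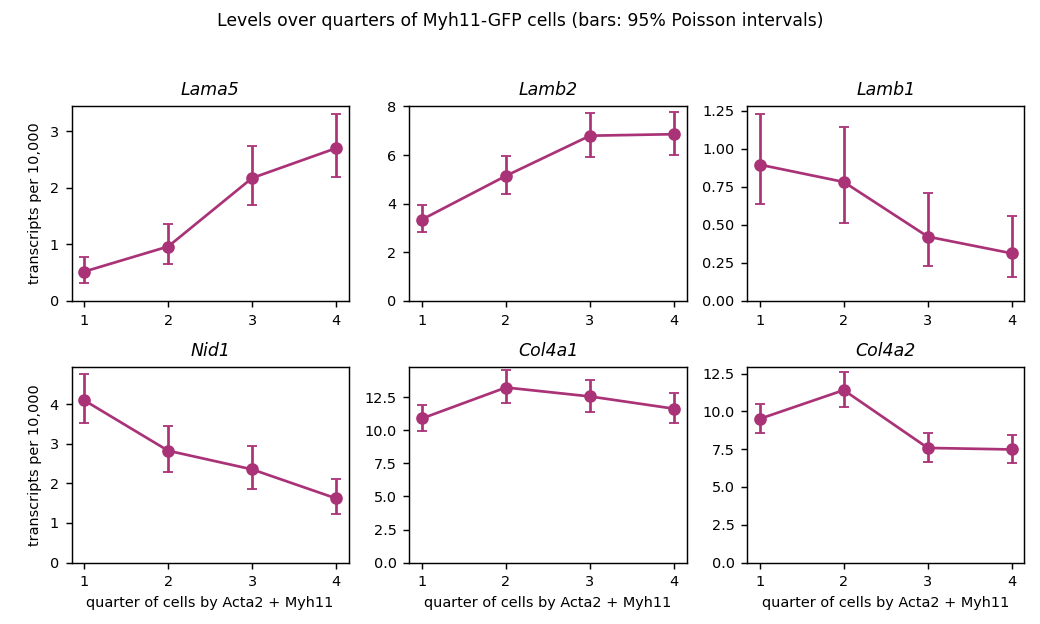
Transcripts per 10,000 (y axis, linear from 0) of 6 genes over 4 groups of the 330 Myh11-GFP cells ranked by Acta2 plus Myh11 (x axis, 1 lowest). Points are pooled levels with 95% Poisson intervals; Lama5 goes from 0.52 to 2.70 and Nid1 from 4.10 to 1.62, while Col4a1 stays between 10.9 and 13.2.

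Fibroblast markers moved with the classes, so the genes were also read by marker content. The first of the 4 classes compared was 67 low cells with fibroblast markers above 1% of transcripts. The second was 73 low cells with pericyte markers above 1% and no fibroblast, keratinocyte or striated muscle markers above 1%. The others were 29 high cells with fibroblast markers and 125 high cells without them. The VSMC list, above 1% in 19 low cells, was not used to leave cells out. Cells past the fibroblast cut were placed in the fibroblast classes whatever their pericyte markers. The 67 low cells so placed had Rgs5 at 87.8 and Kcnj8 at 3.26 per 10,000. In pericyte-marker low cells these genes were at 163 and 2.40. In the 29 high cells they were at 115 and 1.75, with Acta2 at 66.6. These 29 cells had Col1a1 at 26.6, Dcn at 4.37 and Pdgfra at 0. The 125 high cells had these at 6.43, 2.33 and 0.15. The 67 low cells had Col1a1 at 169, Dcn at 87.0 and some Pdgfra. The fibroblast list includes the matrix genes Col1a1, Col1a2 and Col3a1, so the classes were set in part by matrix genes. Which markers put the 29 cells past the cut was not tested. Lama5 was at 0.40 (0.22 to 0.67) per 10,000 in the first class, 1.29 (0.93 to 1.75) in the pericyte-marker cells, 1.65 (0.96 to 2.64) in high cells with fibroblast markers and 2.61 (2.19 to 3.08) in high cells without. Nid1 was highest in the first, at 4.56 (3.88 to 5.32), followed by 3.34 (2.74 to 4.04), 3.5 (2.45 to 4.84) and 1.54 (1.23 to 1.92) in the same order of classes. For both genes the intervals of pericyte-marker low cells and of high cells without fibroblast markers did not overlap. These intervals cover counting error only, and the marker classes were not read by library.

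Lamb2 was at 4.27, 4.98, 5.54 and 7.13 per 10,000 over the same 4 classes, in the same order. The intervals of pericyte-marker low cells (4.24 to 5.83) and of high cells without fibroblast markers (6.44 to 7.89) did not overlap. Lamb1 was at 1.24 (0.91 to 1.67) in low cells with fibroblast markers and at 0.54 (0.31 to 0.86) in pericyte-marker low cells, which overlapped with 0.32 (0.18 to 0.51) in high cells without fibroblast markers. Col4a1 (14.6, 12.5, 16.5 and 11.2) and Col4a2 (11.8, 10.8, 13.1 and 6.67) had intervals that overlapped between the 2 classes with fibroblast markers, and Col4a2 was lowest in high cells without them (6.00 to 7.40). The 16 low cells with keratinocyte or striated muscle markers had little of any of the 10 genes, with Col4a1 at 1.03 (0.41 to 2.12).

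Of the 4 pairs of related chains, the balance of the laminin and collagen IV pairs differed between the classes, and that of the nidogen pair had overlapping intervals. Lamb2 made up 83.7% of Lamb1 plus Lamb2 transcripts in low cells (95% exact binomial interval 79.7 to 87.2, of 405) and 95% in high cells (92.6 to 96.8, of 463). The share was higher in high cells in each of the 4 libraries, at 88.4% and 91.8% in library 13, 82.8% and 96.3% in library 14, 82.1% and 98.7% in library 15, and 76.8% and 91% in library 16. Lama5 made up 40% of Lama4 plus Lama5 in low cells (32.3 to 48, of 160) and 61.8% in high cells (55.5 to 67.8, of 254). The share was higher in high cells in libraries 13, 14 and 16 but not in library 15, where it was 54.8% in low and 50% in high cells.

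By marker content, the Lama5 share was 20.9% (11.9 to 32.6) in low cells with fibroblast markers, 53.2% (41.5 to 64.7) in pericyte-marker low cells, 42.5% (27.0 to 59.1) in high cells with fibroblast markers and 65.4% (58.6 to 71.8) in high cells without them. The last 3 intervals overlapped in part, and the share in high cells with fibroblast markers was below that in pericyte-marker low cells. The Lamb2 share was 77.4% (70.9 to 83.1), 90.3% (84.9 to 94.2), 90.5% (80.4 to 96.4) and 95.8% (93.3 to 97.5) in the same classes. Col4a1 made up 54.4% of the collagen IV pair in low cells (52.1 to 56.8) and 60.9% in high cells (58.2 to 63.6), and Nid1 made up 96.9% (94.2 to 98.6) of the nidogen pair in low and 95.2% (89.8 to 98.2) in high cells.

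**Figure D3:**
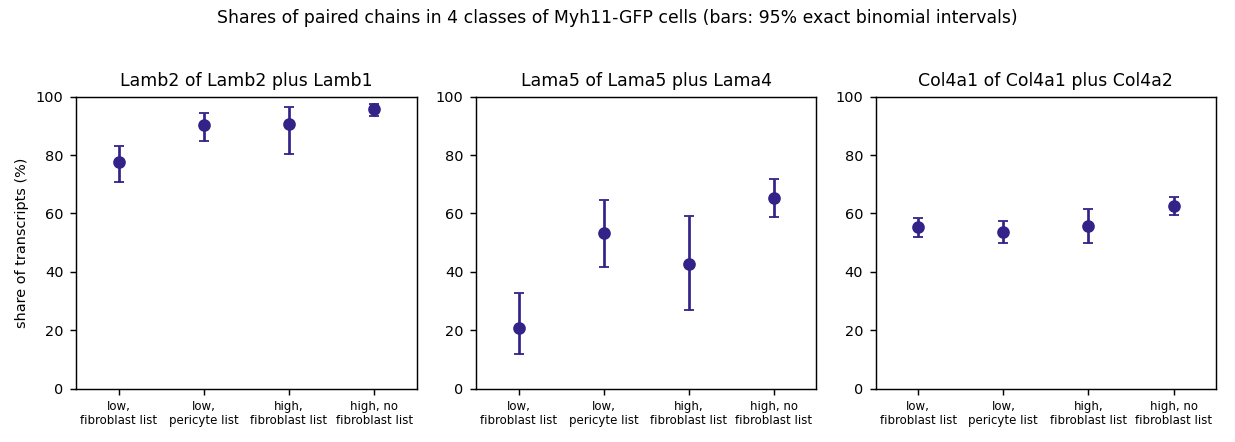
Share of transcripts in percent (y axis, 0 to 100) of Lamb2, Lama5 and Col4a1 within their chain pairs in 4 classes of Myh11-GFP cells (x axis), with 95% exact binomial intervals. The Lama5 share goes from 20.9% in low cells with fibroblast markers to 65.4% in high cells without them, and the Col4a1 share stays between 53.7% and 62.6%.

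The share of Myh11-GFP cells with UMIs of these genes differed widely between the genes. After each cell was thinned to 1000 UMIs outside Gm genes, which left out 23 shallower cells of 330, Col4a1 was found in 59.3% of cells (53.6 to 64.8), Col4a2 in 50.5%, Lamb2 in 43.6% and Lamc1 in 31.3%. The corresponding shares without thinning were 79.1%, 77.3%, 73.3% and 67.9%. The remaining genes were found in fewer cells without thinning, Nid1 in 52.7%, Lama5 in 38.2% and Lama4 in 35.5%. Hspg2 was found in 23.3%, Lamb1 in 18.2% and Nid2 in 4.24%. In MCs thinned alike, which came from other libraries, Col4a1 was found in 0.137% of 2195 cells (0.028 to 0.399). Free RNA within the Myh11-GFP libraries is not measured by that share, and barcodes below 1000 transcripts of the set not in use held the 10 genes at 33.02 per 10,000 there (142 transcripts). In the 16 low cells with keratinocyte or striated muscle markers of the same libraries, Col4a1 was at 1.03 per 10,000. The part of free RNA in the shares was not tested. Col4a1 was found in 54.6% of low and 64.6% of high cells, with overlapping intervals.

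Col4a1 and Col4a2, the pair that starts from 1 shared stretch, went together more closely than any other pair in rank. Over the 330 cells the Spearman correlation of their levels was 0.45 (Pearson 0.48), and it was 0.52 in the 176 low and 0.35 in the 154 high cells. The other 44 pairs ranged from -0.15 to 0.31 over all cells. On the Pearson scale Lama4 with Lamc1 was higher, at 0.63, although their Spearman correlation was 0.16. Cells of a library share its depth and its preparation, so that these values are a description. Col4a1 and Col4a2 were also the most abundant of the genes followed, found in 79.1% and 77.3% of cells without thinning. The other genes were found in 4.24% (Nid2) to 73.3% (Lamb2) of cells. Scarce counts can lower a rank correlation, and the part of abundance or of the shared start in the rank of this pair was not tested. Over the 8 pools of a library and a class the Pearson correlation of Col4a1 with Col4a2 was 0.75 on log2 levels.

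Over the same 8 pools, the genes outside the 10 whose pattern was most like that of Col4a1 plus Col4a2 were Procr (r = 0.93), which encodes the endothelial protein C receptor, Sash1 (0.92), Fam46a (0.91), Zfp703 (0.90) and Wls (0.89), which encodes the carrier of Wnt proteins. They were the top 5 of 2366 genes compared, and 8 pools that share libraries give such values little weight. Of the remaining genes with enough transcripts, Nid1 was at 0.53 (rank 227), Hspg2 at 0.36, Lamc1 at 0.28, Lama4 at 0.22, Lamb2 at -0.15 and Lama5 at -0.21.

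Other genes of the basement membrane were read from lists by role. Their counts stand beside the 4.99% of all 4390 genes at least 2 times higher in high cells and the 6.49% at least 2 times lower. Of 6 other laminin chains, Lama2, Lama3 and Lamc3 had the most transcripts in Myh11-GFP cells, at 0.97, 0.26 and 0.13 per 10,000. Lama2, the α chain of muscle and nerve laminins, was the only one with at least 50 transcripts, and it was at 1.5 in low and 0.31 in high cells, lower in high cells in all 4 libraries. Of 4 other collagen IV chains only Col4a5 reached 50 transcripts. It was at 0.18 in low and 0.89 in high cells, a ratio of 5.09 (2.80 to 9.89) with all 4 libraries higher in high cells, while Col4a4, Col4a6 and Col4a3 had 13, 13 and 2 transcripts in all.

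Of 14 other basement membrane components, 8 were compared, 2 of them at least 2 times higher in high cells (4.99% of all genes) and 3 at least 2 times lower (6.49%). Sparc, a collagen-binding glycoprotein, was at 153 in low and 73.5 in high cells, Tinagl1, a laminin-binding matricellular protein, at 8.60 and 9.80, and Mcam, a receptor for laminin α4, at 3.75 and 8.16. The remaining genes past the factor of 2 are named here after their values were seen. Ntn4, a netrin that binds laminin γ1, was at 0.53 and 2.27, whereas Fbln2 was at 0.83 and 0.047 and Smoc2 at 0.51 and 0.19.

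None of the 6 compared genes of 13 for collagen IV assembly differed by a factor of 2, with the crosslinking enzyme Loxl2 at 3.21 in low and 1.97 in high cells, the collagen chaperone Serpinh1 at 2.35 and 1.59, and P4hb at 2.00 and 1.91. Among 13 receptor genes 8 were compared and 1 was at least 2 times higher in high cells (4.99% of all genes), namely Bcam, a receptor for laminin α5, at 1.44 and 3.83. The 3 most abundant, Itgb1 (6.87 and 10.9), Dag1 (2.89 and 4.08) and Itga7 (3.20 and 3.64), encode the integrin β1 chain, dystroglycan and a laminin-binding integrin chain. Of 9 turnover genes 7 were compared and 3 were at least 2 times lower in high cells (6.49% of all genes), namely Mmp2, Mmp14 and Timp1, whereas the 3 most abundant were Adamts1 (17.9 and 20.5), Timp3 (16.3 and 15.8) and Timp2 (8.53 and 5.16).

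Genes of the interstitial matrix were read for comparison. Of 13, all compared, 8 were at least 2 times lower in high cells, against 6.49% of all genes, and none was higher by that factor, with Col1a2 at 95.9 in low and 16.8 in high cells, Col3a1 at 78.7 and 22.5, and Col1a1 at 77.7 and 9.67. Their median log2 ratio was -1.18, against 0.00 for the 9 basement membrane genes. The list shares fibroblast markers, and the fibroblast-marker cells of the low class held Col1a1 at 169 per 10,000.

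What did MCs contribute to these transcripts, and did the loss of Tln1 change them? MCs are known to adhere to basement membranes through integrins. In MCs, all 10 genes were at or below 0.33 transcripts per 10,000 in every mouse. Lamc1 was the most abundant, at 0.23, 0.32 and 0.20 per 10,000 in WT mice 1, 2 and 3 and at 0.33, 0.25 and 0.21 in KO mice 1, 2 and 3. The 2 groups overlapped throughout. With 239 transcripts in 186 of 2477 cells and a count above 0 in all 30 MC libraries, Lamc1 was also the only one of the 10 that reached at least 10 transcripts in at least 3 mice.

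Lamc1 had a log2 fold change of KO over WT of 0.12 ± 0.29 (SE, n = 3 and 3) and an adjusted p of 0.96 by limma over 8601 genes. No gene passed an adjusted p of 0.05 in that fit, a background of 0.00%, while 502 genes had an unadjusted p under that value and limma with voom weights called 2 genes, neither of them among the 10. Of the lists above, 4 other basement membrane components, 10 assembly, 7 receptor, 6 turnover and 13 interstitial matrix genes were tested in MCs and none was called.

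The other 9 genes were too scarce for that filter, with 7 to 54 transcripts each over all MCs. Together they were at 0.485, 0.593 and 0.744 per 10,000 in the WT mice and at 0.410, 0.0849 and 0.0917 in the KO mice, so that every KO mouse was below every WT mouse. A count of 3 transcripts corresponds to 0.0057 to 0.043 per 10,000 in a mouse, and single genes lay near that level. Among single genes, 3 of the 10 (Lamb2, Col4a1 and Hspg2) were lower in all KO mice than in any WT mouse, against 4.50% of the 19910 genes with at least 1 transcript in any mouse, and none was higher. In either direction, 8.52% of these genes did not overlap. A gene absent from any WT mouse could not be lower in all KO mice. The 19910 genes include such genes, which lowers their share, and so do the 10 (Lama5 and Nid2). Among the 8601 genes that passed the filter, of which Lamc1 was the only one here and overlapped, 6.31% were lower in all KO mice and 11.6% did not overlap in either direction.

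Lamb2 was at 0.139, 0.0959 and 0.0858 per 10,000 in WT mice and at 0.0513, 0.0085 and 0.0134 in KO mice. Fitted without the filter, its log2 fold change was -1.91 ± 0.66 (SE, n = 3 and 3) with an adjusted p of 0.89 by limma over 19910 genes. Col4a1 was at 0.0578, 0.0785 and 0.114 in WT and 0.0385, 0.0085 and 0.0095 in KO mice, with a log2 fold change of -1.78 ± 0.69 and the same adjusted p in limma. Hspg2 was at 0.0462, 0.0523 and 0.0429 in WT and 0.0256, 0.0085 and 0.0134 in KO mice. These values in KO mice 2 and 3 rest on 1 to 7 transcripts each. Nid1 was at 0.0693, 0.166 and 0.172 in WT and 0.115, 0.0340 and 0.0076 in KO mice, which overlapped, and so did Lama4, Lama5, Lamb1, Col4a2 and Nid2. None of the 10 passed an adjusted p of 0.05 in limma without the filter.

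**Figure D4:**
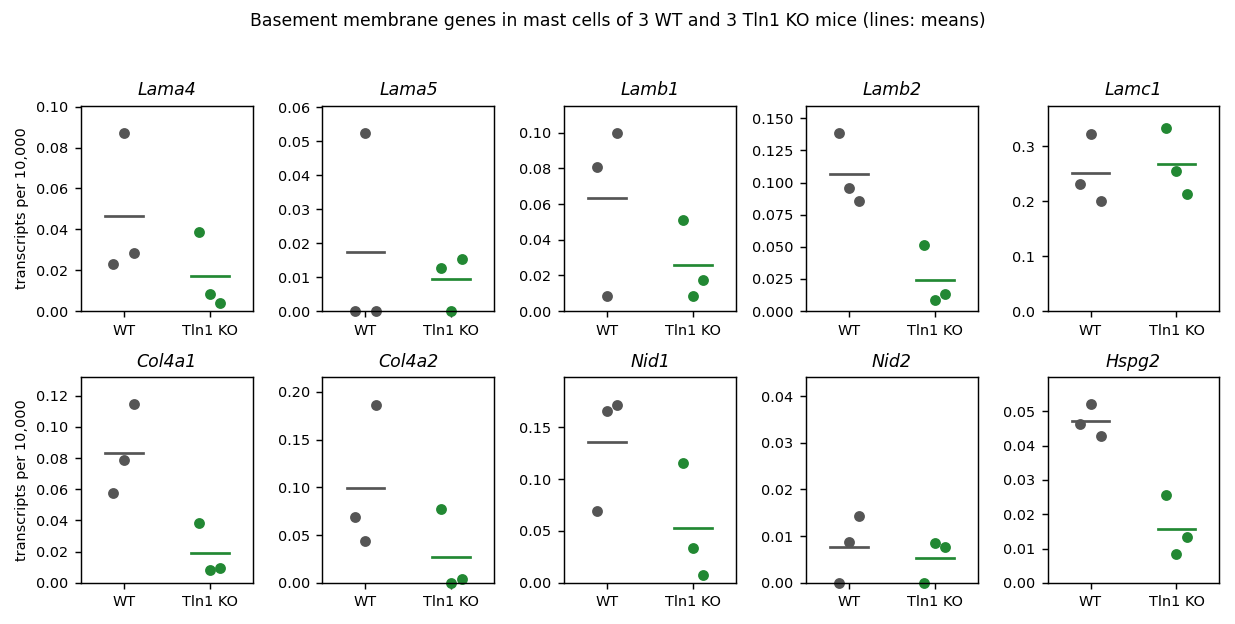
Transcripts per 10,000 outside Gm genes (y axis, linear from 0, own scale per gene) of the 10 genes in MCs of 3 WT and 3 Tln1 KO mice (x axis). Points are mice and lines are group means, over all kept cells. Lamc1 lies between 0.20 and 0.33 in all 6 mice, and Lamb2, Col4a1 and Hspg2 do not overlap between the groups. Lamb2, Col4a1 and Hspg2 do overlap without the cells that carry markers of other cell types, as described below.

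Fibroblast markers moved with the same mice. Their summed level was 21.2, 82.9 and 54.3 per 10,000 in the WT mice and 10.7, 2.05 and 1.01 in the KO mice, with Col1a1 at 4.04, 35.9 and 26 in WT and at 1.94, 0.95 and 0.31 in KO mice. Macrophage markers were at 2.00, 40.3 and 15.0 in WT and 1.74, 1.12 and 7.30 in KO mice, and keratinocyte markers at 7.39, 31.6 and 1.83 and at 0.10, 1.56 and 28.3. Endothelial markers summed to 0.061 to 0.312 in every mouse.

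The transcripts of the 9 genes sat largely in a few cells. Fibroblast, macrophage or keratinocyte markers exceeded 1% of transcripts in 66 of 2477 cells, which held 8.23% of all transcripts but 145 of the 252 transcripts of the 9 genes (57.6%), including 14 of 15 for Lama5. A single cell held 44 of the 252. Of the Lamc1 transcripts they held 16.3%. Without these cells the 9 genes together were at 0.171 (95% Poisson interval 0.094 to 0.287), 0.259 (0.168 to 0.383) and 0.113 (0.045 to 0.233) per 10,000 in WT mice and at 0.312 (0.200 to 0.464), 0.0769 (0.035 to 0.146) and 0.0589 (0.039 to 0.085) in KO mice. The highest value was then that of a KO mouse, and the groups overlapped. Lamb2 was then at 0.012, 0.052 and 0.016 in WT and 0.052, 0.0085 and 0.0042 in KO mice. Col4a1 was at 0.012, 0.052 and 0.016 in WT and 0.026, 0.0085 and 0.0084 in KO mice. Hspg2 was at 0, 0.021 and 0.016 in WT and 0.013, 0.0085 and 0.011 in KO mice. Each of these genes thus overlapped between the groups, on 0 to 5 transcripts a mouse. Lamc1 was at 0.183, 0.259 and 0.162 in WT and 0.312, 0.248 and 0.204 in KO mice without the 66 cells. Fibroblast markers in the cells that remained were at 1.69, 6.85 and 3.35 per 10,000 in WT mice and 1.29, 1.16 and 0.99 in KO mice. Every WT mouse was thus still above every KO mouse in these markers. The 66 cells were spread over the mice as follows. These cells lay in all 6 mice, 7, 26 and 10 in WT and 3, 6 and 14 in KO mice.

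**Figure D5:**
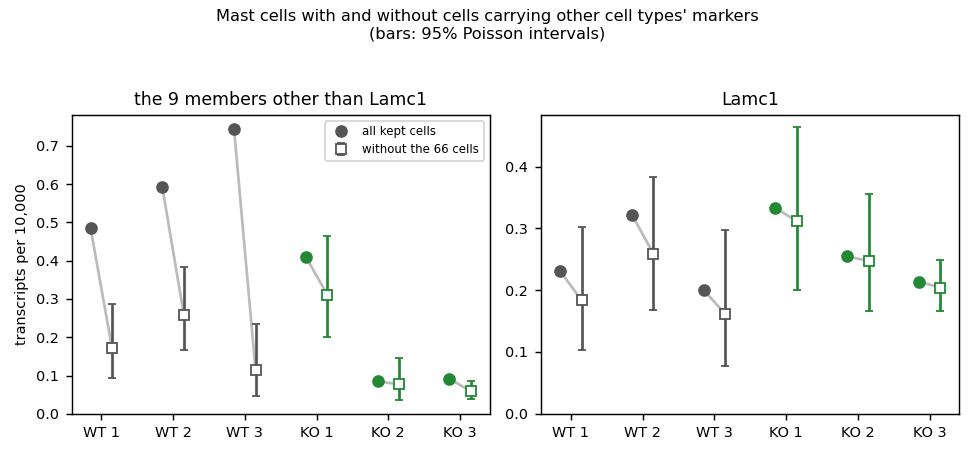
Transcripts per 10,000 (y axis, linear from 0) of the 9 genes other than Lamc1 summed (left) and of Lamc1 (right) in MCs of each mouse (x axis), over all kept cells (filled circles) and without the 66 cells with over 1% fibroblast, macrophage or keratinocyte markers (open squares, 95% Poisson intervals). The summed level goes from 0.744 to 0.113 in WT mouse 3 and from 0.0917 to 0.0589 in KO mouse 3.

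Libraries could also be grouped by the pattern of transcripts on the 96 barcodes that a library did not use. These patterns were alike (r = 0.89 to 0.98 over 62 library pairs) within 3 sets, namely mice WT 1 and KO 1, mice WT 2, WT 3 and KO 2, and mouse KO 3 alone, and unlike between sets (r at most 0.20). Within the first set the 9 genes were at 0.49 in the WT and 0.41 in the KO mouse, and within the second at 0.59 and 0.74 in WT and 0.0849 in the KO mouse. Lamc1 was at 0.23 and 0.33 within the first set, and at 0.32 and 0.20 in WT and 0.25 in KO within the second. With the sets as a term in limma, the log2 fold change of Lamc1 was 0.29 ± 0.34 (SE), with an adjusted p of 0.83, on 3 WT and 3 KO mice.

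Levels in Myh11-GFP cells were then set beside those in MCs. The 10 genes summed to 37.7 transcripts per 10,000 in Myh11-GFP cells (36.7 to 38.8) and to 0.31 to 0.94 in the 6 mice, a ratio of 51.7 to the median mouse and of 40.0 to 124 to single mice. Without MCs that carried fibroblast markers the ratio was 109.

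Against the median mouse, Col4a1 was 250 times higher in Myh11-GFP cells, Lama5 239 times, Col4a2 160 times, Lamb2 78.9 times, Lama4 51.8 times, Nid1 30.3 times, Hspg2 20.7 times, Lamb1 18.1 times, Lamc1 17.3 times and Nid2 12.9 times. Such ratios were not particular to the 10 genes, and their share over all genes is not given here. Tinagl1 was at 211 times the median mouse, Timp3 at 48.3, Col3a1 at 33.4 and Sparc at 26.8. Itgb1 was at 2.98 times and P4hb at 0.74 times. Against the MCs of all mice pooled, in which KO mouse 3 weighs most, the ratio was 384 for Col4a1, 279 for Col4a2, 131 for Lamb2, 101 for Lama5, 17.4 for Lamc1 and 14.7 for Nid2, so that the order of the genes depended on the choice. Most MC levels in these ratios rest on few transcripts, 15 for Lama5, of which 14 lay in the 66 cells with markers of other types, and 7 for Nid2. Lama5 was at 0 in WT mice 1 and 3 and KO mouse 2. Its median mouse level of 0.0064 thus rested on 1 transcript, that of KO mouse 1. Lamc1, with the most transcripts in MCs, was at 4.20 in Myh11-GFP cells (3.88 to 4.55) and 0.24 in pooled MCs (0.21 to 0.27). After thinning, any of the 9 genes other than Lamc1 was found in 88.3% of Myh11-GFP cells (84.1 to 91.7) and in 1.32% of MCs (0.89 to 1.89). Lamc1, a single gene, was found in 31.3% and 2.05%. Cell type, mouse line, sort gate and library set changed together between these groups and cannot be told apart.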

How the data were processed

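Expression was measured by mCEL-Seq2 in 34 libraries of ear skin cells, 30 of MCs and 4 of Myh11-GFP cells. The deposited tables hold transcript estimates per gene and barcode. Per the labels and the study's methods, the authors demultiplexed reads with bcl2fastq 2.17.1.14, mapped them with BWA 0.6.2-r126 to mm10 gene models, discarded reads of several loci, and converted UMI counts to transcripts by binomial statistics, so that other measurements in the tables are neither CPM nor whole counts. Converted back, every value was a whole number of UMIs within 4.1e-12. Each table lists 2 sets of 96 barcodes, of which a library used 1, and the same barcodes recur in all libraries. Barcodes with over 1000 transcripts and at most 2% Kcnq1ot1 (which removed 0 cells) were kept. No doublet caller was run on these plate-sorted cells. Gm genes made up 5.42 to 66.8% of a library and were left out of totals.

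Levels were summed transcripts per 10,000, with exact 95% Poisson intervals, conditional exact intervals for ratios and exact binomial intervals for shares, all of which cover counting error only. Transcripts were summed per mouse, scaled by trimmed means of M values (TMM) to 1000000 transcripts a mouse and put on a log2 scale with a pseudocount of 1. Genes that reached 10 transcripts in 3 or more mice were compared between KO and WT by limma (version 3.58.1, R version 4.3.3, mean-variance trend), with Benjamini-Hochberg adjustment and a threshold of 0.05. Mice were the replicates. The limma script was tested on simulated data. Python 3.11.15 did the rest.

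The 10 genes, the lists and the cut at 50 were chosen with earlier results of these data known. Named were the 10 genes, of each list the 3 most abundant genes in Myh11-GFP cells and any passing limma, the 5 genes with the pattern most like the collagen IV pair (Pearson r of log2(level + 0.1), genes with at least 100 transcripts), and Tln1, Acta2 and Myh11. The 9 marker lists were VSMC, pericyte, fibroblast, endothelial, keratinocyte, macrophage, mast cell, striated muscle and Schwann cell. The 2 deposited barcode lists were not used here.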

Additional observations from a re-analysis of the deposited data

Results flagged for a closer look

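Lamb1 in low Myh11-GFP cells of library 13 stood apart from the other libraries, at 0.61 transcripts per 10,000 against 0.92 to 0.95. Its gap to the nearest library was 0.89 of the range over the 4 libraries, above Dixon's critical value for 4 samples. Chance alone marks about 1 in 20 such groups, and 29 groups were examined. Without library 13 the Lamb1 ratio of high over low cells was 0.31, against 0.435 with it.

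The 10 genes were also found on barcodes of the set that a library did not use. On that set, 8 Myh11-GFP, 7 KO and 2 WT barcodes had over 1000 transcripts and are among the kept cells, and the values here are of the other barcodes of the set. Their summed level there was 1.06 per 10,000 in WT libraries (11 transcripts), 0.95 in KO libraries (19 transcripts) and 33.02 in Myh11-GFP libraries (142 transcripts). In the kept cells of barcodes in use it was 0.86, 0.36 and 38.1. The part of such transcripts in the values of single cells was not tested.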

How the results depend on the processing

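The ratio of the 10 summed genes in high over low Myh11-GFP cells, 1.03, was 1.13 with a cut at 25, 0.98 as a mean over single cells and 0.97 without cells carrying fibroblast, keratinocyte or striated muscle markers, and 0.98 to 1.19 when 1 library was left out, the highest without library 14. The cause was not tested. Lama5 (2.10 to 3.85), Lamb2 (1.39 to 1.86), Lamb1 (0.31 to 0.74) and Nid1 (0.46 to 0.63) kept their direction under all 14 alternatives, including barcodes of the set in use only, an alternative chosen after seeing the data. Some of these could hardly change a direction. The Kcnq1ot1 filter removed 0 cells, so that leaving it off changed no ratio. Keeping Gm genes in the total, or leaving Acta2 and Myh11 out of it, scaled the ratios of all genes alike. The ratio of Myh11-GFP cells over MCs, 51.7, was 109 without MCs carrying fibroblast markers, 82.7 with Gm genes kept in the total, 76.1 with MCs as 1 pool and 50.9 to 52.5 when 1 Myh11-GFP library was left out.

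No gene was called between KO and WT by limma. The count was 2 with voom weights, 4 with the sets read from unused barcodes as a term (chosen after seeing the data), and 0 to 12 when 1 mouse was left out, with 12 without KO mouse 1 and 1 without WT mouse 1. The log2 fold change of Lamc1, 0.12, was -0.065 with voom weights and -0.0354 without KO mouse 1, was -0.0354 to 0.32 over left-out mice, and never passed the threshold. With the mouse number as a replicate block it stayed at 0.12 (adjusted p = 0.99) and 0 genes were called. Deviations of same-numbered mice correlated at 0.16, -0.21 and -0.27, so the numbers did not pair the mice. A term for the barcode set in use was not run, since libraries of every mouse alternate between the sets.

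Depth limits the MC values: 9 of the 10 genes had 7 to 54 transcripts in 2477 cells.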
